A study of Mus musculus with 4 samples.

Results

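The genes described here encode nuclear subunits of respiratory chain complexes I, III and IV, together with assembly factors of complex I, measured in retinal cells of BAC-Crx-EGFP mouse embryos. They were chosen by symbol: features whose annotation gives exactly 1 gene symbol beginning with Nduf, Uqcr, Cox4, Cox5, Cox6, Cox7 or Cox8, with the feature of highest mean intensity kept for each gene. The rule found 75 features for 66 of the 18920 genes with a feature of their own. It takes no symbol of complex II, which is given beside the others below, as is Cyc1 of complex III. Further genes of complexes I, III and IV with other symbols or without such a feature were not analysed here. By role the 66 genes comprise 33 subunits of complex I, 7 assembly factors of complex I, 8 subunits of complex III, 17 subunits of complex IV and Ndufa4l2, a relative of Ndufa4 placed with none of them. Ndufa4 was counted with complex IV, of which its product is a subunit in spite of its name.

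The retinas came from day E17.5 of embryonic development, and their cells were sorted on the reporter into EGFP-positive and EGFP-negative fractions, with 2 samples of each on 1 Affymetrix whole-transcript array apiece. All 4 samples carry the same transgene on the genetic background 129Sv/Ev: a bacterial artificial chromosome that places enhanced green fluorescent protein under the control of Crx, a transcription factor gene of photoreceptors and their precursors. The comparison asks which transcripts set reporter-positive cells apart from the retinal cells sorted as lacking the reporter. Nothing in the labels ties the replicates to separate embryos or sorts, so each p-value reflects the spread of these samples alone, which may be technical. Values are normalised intensities, and differences are EGFP-positive minus EGFP-negative on the log2 scale with limma's moderated standard error (SE) from 2 arrays per fraction.

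The respiratory chain of the inner mitochondrial membrane passes electrons from NADH and succinate to oxygen and pumps protons that drive ATP synthesis. Complex I oxidises NADH and reduces ubiquinone, complex II oxidises succinate, complex III passes electrons from ubiquinol to cytochrome c, and complex IV reduces oxygen to water. Most subunits are encoded in the nucleus and the others in mitochondrial DNA. Mature photoreceptors pack mitochondria into their inner segments, while retinal progenitors and early neurons are known for a large use of glycolysis.

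The fractions carried the marks of their sort. All 9 photoreceptor precursor markers examined were called higher in EGFP-positive cells, with a summed intensity of 23623.0 and 26760.3 in EGFP-positive samples, against 4015.5 and 3997.8 in EGFP-negative samples. All 7 measured cell cycle genes had lower means in EGFP-positive cells and none was called, with unadjusted p under 0.05 for 7 of 7. Their summed intensity was 12641.7 and 6398.7 in EGFP-positive replicates 1 and 2, against 22634.5 and 17390.3 in EGFP-negative replicates 1 and 2. All 7 measured progenitor markers also had lower means, and 1 of them, Sox2, was called. Their summed intensity was 15557.9 and 12607.4 in EGFP-positive samples, against 24384.4 and 26653.8 in EGFP-negative samples. The 8 ganglion cell markers summed to 5581.5 and 7828.6 in EGFP-positive replicates 1 and 2, against 3480.6 and 7410.3 in EGFP-negative replicates 1 and 2. None of these 8 was called, and their part in replicate gaps of the members was not tested.

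No respiratory chain gene passed the test, yet most of the 66 had lower means in EGFP-positive than in EGFP-negative cells. Of the 66 genes 54 had a difference below 0 (81.8%), with a median log2 difference of -0.18, against 52.2% and a median of -0.01 over all 22431 features. In 33 genes (50.0%) both EGFP-positive values lay below both EGFP-negative values, which held for 25.3% of all features. The opposite order held for 2 genes, Ndufv3 and Ndufb10 (3.03%), and for 22.3% of all features. The largest differences among genes whose fractions did not overlap were those of Ndufb6 (-0.88 ± 0.17), Ndufc2 (-0.67 ± 0.14), Uqcrb (-0.64 ± 0.14) and Ndufc1 (-0.63 ± 0.15). Ndufv3 stood at the other end with 0.35 ± 0.12.

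The test was limma over all 22431 features with Benjamini-Hochberg adjustment and a threshold of 0.05. It called 0.82% of features higher and 0.143% lower, and 0 of the 66 members in either direction, with adjusted p from 0.0885 for Ndufb6 to 0.993 for Ndufa8. At an unadjusted p under 0.05, 14 members (21.2%) were lower and 1 was higher, against 9.83% and 9.34% of all features. The 14 lower members became 8 without EGFP-positive replicate 2 and 8 without EGFP-negative replicate 2. In sorted bulk samples a smaller share of cells that express a gene and less RNA of it per cell cannot be told apart. The part of the cell cycle and progenitor genes, which differed in the same direction, was not tested.

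**Figure D1:**
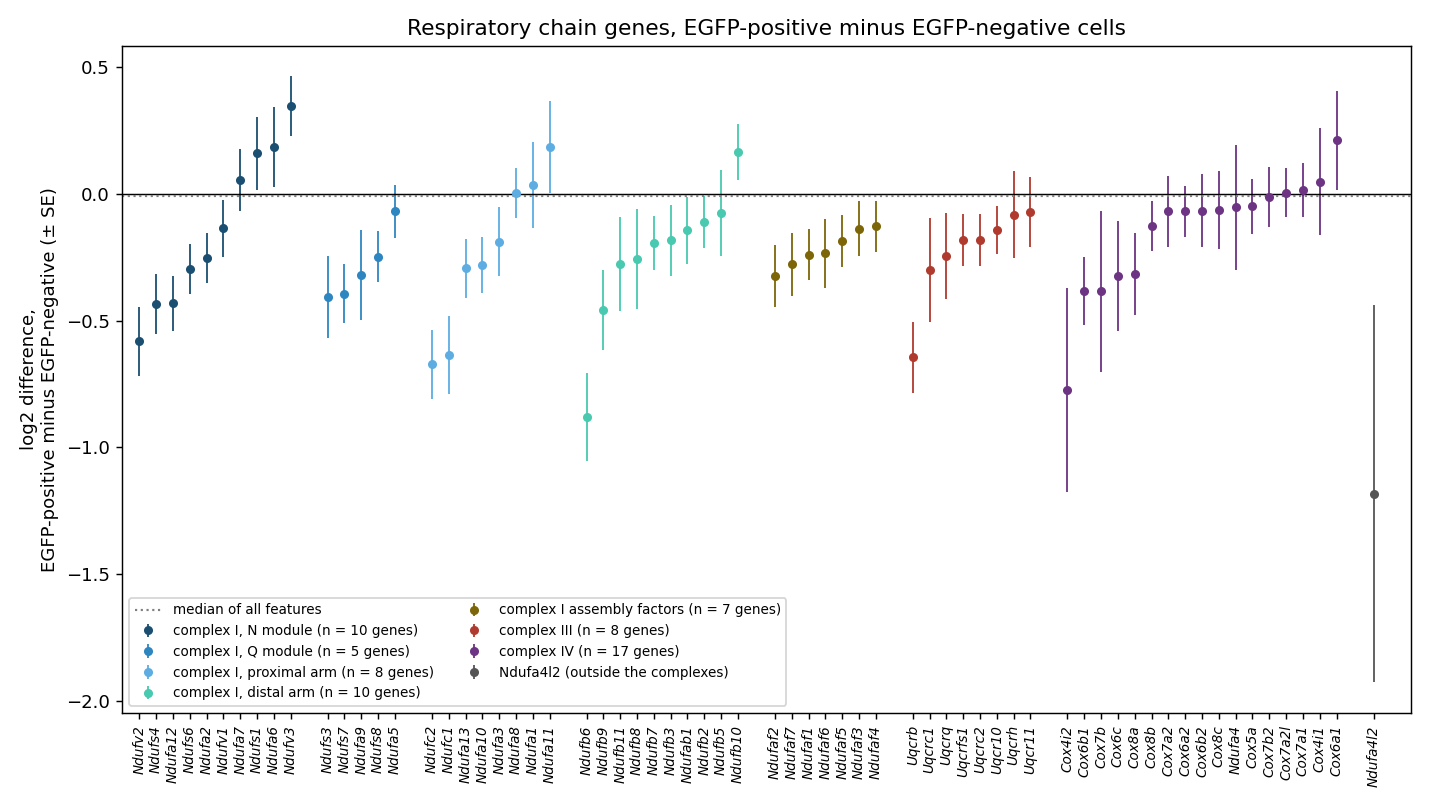
Log2 difference, EGFP-positive minus EGFP-negative, of each of the 66 genes (points) with limma's standard error (bars), grouped by complex along the horizontal axis. Of the 66 points 54 lie below 0, and the dotted line marks the median of all features at -0.01.

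Because so many of these genes lay on 1 side together, their promoters were read for letters bound by known regulators of respiratory chain genes. Letters of the photoreceptor factors OTX2 and CRX were read beside them. RefSeq's promoter table (build GRCm38.p6) held 53 of the 66 genes, and the 250 bases before the start of transcription were searched on both strands. The motifs were GCGCA and GCGC with 1 free base between them for NRF1 and CCGGAAG for GABPA, activators of nuclear respiratory genes, AANATGGC for YY1, AAGGTCA for the ERR receptors, and TAATCC for the homeodomain factors OTX2 and CRX. No motif contains another, though matches can share letters at their ends. The NRF1 letters occurred in 6 of the 53 genes (11.3%) and in 4.23% of 27025 genes in the table. GABPA letters occurred in 8 members (15.1%) and 7.83% of all genes, YY1 letters in 6 members (11.3%) and 4.49%, ERR letters in 1 member (1.89%) and 4.7%, and TAATCC in 6 members (11.3%) and 7.21%. Among the 27 genes of the table whose EGFP-positive values lay wholly below the EGFP-negative ones, 2 held NRF1 letters and 5 held GABPA letters, against 4 and 3 of the other 26. These matches are a description of letters, not of binding.

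Promoters are shown for Ndufb6, which had the largest difference among genes without overlap, for Ndufs6 and Cox6a1, which hold NRF1 letters and differed by -0.29 and 0.21, and for Ndufv3, the gene with the highest difference. Capitals mark a motif match, and each sequence runs 5′ to 3′ on the gene's strand up to the last base before the start.
Ndufb6 (chr4:40279422-40279671, minus strand): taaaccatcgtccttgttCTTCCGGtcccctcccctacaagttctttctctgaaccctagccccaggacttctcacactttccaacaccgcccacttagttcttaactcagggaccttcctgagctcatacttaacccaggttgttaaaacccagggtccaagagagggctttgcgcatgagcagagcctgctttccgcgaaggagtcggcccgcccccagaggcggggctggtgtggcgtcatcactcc
Ndufs6 (chr13:73328483-73328732, minus strand): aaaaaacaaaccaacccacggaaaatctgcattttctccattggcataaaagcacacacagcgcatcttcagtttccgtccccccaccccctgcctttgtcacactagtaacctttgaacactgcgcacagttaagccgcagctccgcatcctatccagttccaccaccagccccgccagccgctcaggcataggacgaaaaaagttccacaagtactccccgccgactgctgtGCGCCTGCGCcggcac
Cox6a1 (chr5:115348959-115349208, minus strand): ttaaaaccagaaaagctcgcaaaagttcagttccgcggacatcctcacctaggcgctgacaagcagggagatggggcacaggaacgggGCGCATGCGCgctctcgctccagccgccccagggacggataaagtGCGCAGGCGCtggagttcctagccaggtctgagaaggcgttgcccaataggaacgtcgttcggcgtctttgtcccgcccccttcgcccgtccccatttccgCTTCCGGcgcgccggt
Ndufv3 (chr17:31519865-31520114, plus strand): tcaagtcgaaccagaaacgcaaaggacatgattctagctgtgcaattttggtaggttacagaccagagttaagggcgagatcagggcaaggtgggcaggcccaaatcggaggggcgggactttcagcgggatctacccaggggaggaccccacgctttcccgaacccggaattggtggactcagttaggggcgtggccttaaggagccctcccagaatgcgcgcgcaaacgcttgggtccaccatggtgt
The Ndufb6 window holds 1 GABPA match that begins 232 bases before the start. Ndufs6 holds 1 NRF1 match, 16 bases before the start. Cox6a1 holds NRF1 matches at 162 and 117 bases and a GABPA match at 16 bases before the start. None of the 5 motifs occurs in the Ndufv3 window.

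Complex I subunits had a median log2 difference of -0.25, with 25 of 33 below 0. Fractions did not overlap in 20 of them, 18 lower (54.5%) and 2 higher (6.06%) in EGFP-positive cells. Over all features the shares were 25.3% lower and 22.3% higher. The subunits fall into the N module, which binds NADH, the Q module, which reduces ubiquinone, and the proximal and distal parts of the membrane arm, which pumps protons. Medians were -0.19 over 10 genes of the N module, -0.32 over 5 of the Q module, -0.23 over 8 of the proximal arm and -0.19 over 10 of the distal arm. No difference between modules was tested.

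In the N module the members lay on both sides of 0. Ndufv2, a core subunit with an iron-sulfur cluster, read 983.8 and 837.4 in EGFP-positive samples, against 1259.6 and 1464.5 in EGFP-negative samples. Both EGFP-positive values lay below both others, with a log2 difference of -0.58 ± 0.14 (95% interval -0.93 to -0.23, limma adjusted p = 0.117). Ndufs4, an accessory subunit whose loss in mice causes a model of Leigh syndrome, read 845.9 and 797.1 in EGFP-positive samples, against 1033.4 and 1193.1 in EGFP-negative samples (-0.44 ± 0.12, adjusted p = 0.144). Ndufa12, chosen after its values were seen, had a similar difference of -0.43 ± 0.11 (adjusted p = 0.132).

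Ndufv3, a small accessory subunit beside the NADH site, ran the other way. It read 622.3 and 550.2 in EGFP-positive samples, against 481.2 and 439.9 in EGFP-negative samples, and was the 1 member with a higher mean and an unadjusted p under 0.05. Its log2 difference was 0.35 ± 0.12 (95% interval 0.05 to 0.64, adjusted p = 0.207). Ndufa6, which contacts the mitochondrial acyl carrier protein, read 653.5 and 782.9 in EGFP-positive samples, against 564.0 and 701.2 in EGFP-negative samples. Its fractions overlapped (0.19 ± 0.16, adjusted p = 0.635).

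All 5 measured Q module genes had means below those of the EGFP-negative fraction, and 3 did so without overlap (60%, against 25.3% of all features). Ndufs7, which carries the last iron-sulfur cluster before ubiquinone, read 655.1 and 650.1 in EGFP-positive samples, against 797.9 and 921.0 in EGFP-negative samples (-0.39 ± 0.12, adjusted p = 0.163). The EGFP-positive pair was nearly equal, and the EGFP-negative pair spread above it. Ndufs3, another core subunit, read 877.3 and 932.0 in EGFP-positive samples, against 1379.7 and 1039.7 in EGFP-negative samples. Its difference was -0.41 ± 0.16 (adjusted p = 0.262), with -0.20 without EGFP-negative replicate 1 and -0.61 without EGFP-negative replicate 2.

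The proximal membrane arm held both Ndufc genes, small accessory subunits, and the brightest complex I feature of this set was that of Ndufc2. Ndufc2 read 1056.9 and 1303.0 in EGFP-positive samples, against 1819.6 and 1922.0 in EGFP-negative samples, 1.59-fold higher in EGFP-negative cells (-0.67 ± 0.14, 95% interval -1.02 to -0.33, adjusted p = 0.0911). Ndufc1 read 441.9 and 377.9 in EGFP-positive samples, against 569.3 and 707.2 in EGFP-negative samples (-0.63 ± 0.15, adjusted p = 0.121). Both genes separated the fractions. Ndufa11 and Ndufa1, accessory subunits of the same arm, had overlapping fractions and differences of 0.19 ± 0.18 and 0.03 ± 0.17 (adjusted p = 0.685 and 0.961). The other Ndufa11 feature gave 0.05 ± 0.10, also with overlap.

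In the distal arm 9 of 10 genes had differences below 0. Ndufb6, an accessory subunit, read 504.6 and 594.1 in EGFP-positive samples, against 875.5 and 1158.2 in EGFP-negative samples. Its level was 1.84-fold higher in EGFP-negative cells (-0.88 ± 0.17, 95% interval -1.32 to -0.44, adjusted p = 0.0885). Ndufb9 read 370.6 and 346.2 in EGFP-positive samples, against 428.6 and 563.9 in EGFP-negative samples (-0.46 ± 0.16, adjusted p = 0.214). Ndufb10 was the exception, with 269.7 and 242.1 in EGFP-positive samples, against 234.4 and 221.2 in EGFP-negative samples. Its fractions did not overlap, and the difference was 0.17 ± 0.11 (adjusted p = 0.521).

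**Figure D2:**
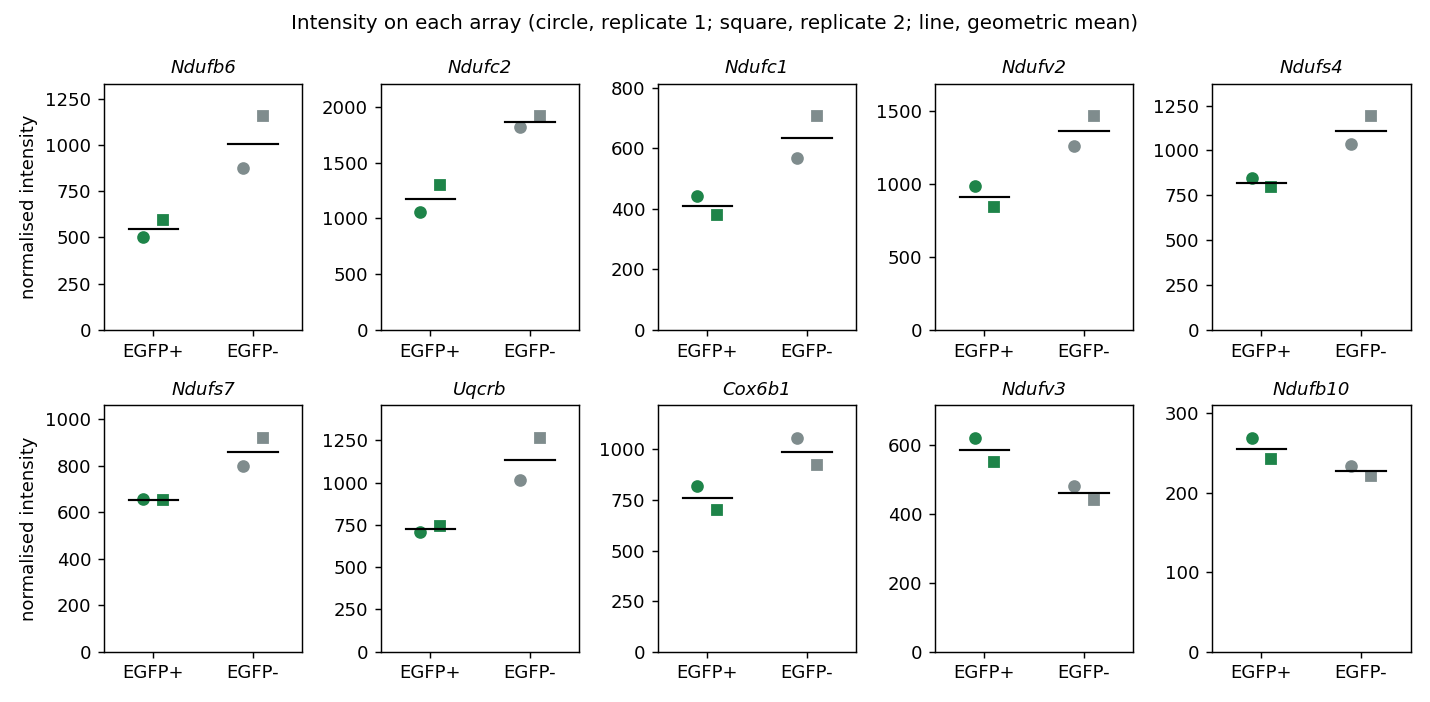
Normalised intensity on each array of 10 genes with no overlap between EGFP-positive (EGFP+, green) and EGFP-negative (EGFP-, grey) samples, on linear axes that start at 0. Circles are replicate 1, squares replicate 2 and lines geometric means, and 8 genes lie lower and 2, Ndufv3 and Ndufb10, higher in EGFP-positive samples.

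The Ndufaf genes, assembly factors that help build complex I and are not part of it, were the group of members with the fewest exceptions. All 7 measured Ndufaf genes had both EGFP-positive values below both EGFP-negative values, which held for 25.3% of all features. Their differences ran from -0.32 to -0.13, with a median of -0.23. None was called, and 1 of 7 had an unadjusted p under 0.05 (14.3%, against 9.83% of all features lower). That gene was Ndufaf2, a relative of Ndufa12 that holds its place during assembly. It read 246.3 and 235.2 in EGFP-positive samples, against 278.0 and 326.1 in EGFP-negative samples (-0.32 ± 0.12, adjusted p = 0.241). Ndufaf7, a methyltransferase acting on a core subunit, read 391.9 and 337.6 in EGFP-positive samples, against 464.3 and 418.9 in EGFP-negative samples (-0.28 ± 0.13, adjusted p = 0.323). Of 7 further complex I assembly genes, which are not members, 5 were below 0, with a median of -0.06. Of these 7 genes 2 lay lower without overlap (28.6%, against 25.3% of all features).

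All 8 complex III genes of this set had differences below 0, from -0.64 to -0.07, with a median of -0.18. Cyc1, a complex III subunit gene that the symbol rule leaves out, differed by -0.02 ± 0.10. Fractions did not overlap in 4 of them, all lower in EGFP-positive cells (50%, against 25.3% of all features). Uqcrb, a small subunit that contributes to ubiquinone binding, read 709.6 and 742.6 in EGFP-positive samples, against 1016.6 and 1266.9 in EGFP-negative samples. It was 1.56-fold higher in EGFP-negative cells (-0.64 ± 0.14, adjusted p = 0.1). Its other features gave -0.68 and -0.64, each with no overlap. Uqcrc2, a core protein of the matrix side and the brightest complex III feature, read 1537.0 and 1612.7 in EGFP-positive samples, against 1724.9 and 1846.3 in EGFP-negative samples (-0.18 ± 0.10, adjusted p = 0.439). Uqcrc1, its partner, read 1379.8 and 1491.7 in EGFP-positive samples, against 1446.2 and 2160.0 in EGFP-negative samples. The distance rested on EGFP-negative replicate 2, without which the difference was -0.01 in place of -0.30.

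Complex IV genes were closest to equality between the fractions, with a median log2 difference of -0.07 over 17 genes, 13 of them below 0. Fractions did not overlap in 4, all lower in EGFP-positive cells (23.5%, against 25.3% of all features). Cox6b1, the somatic form of a subunit at the cytochrome c side, read 821.1 and 699.3 in EGFP-positive samples, against 1058.5 and 923.7 in EGFP-negative samples (-0.38 ± 0.13, adjusted p = 0.216). Cox8a, the common form of the smallest subunit, read 351.9 and 421.0 in EGFP-positive samples, against 427.0 and 537.9 in EGFP-negative samples (-0.32 ± 0.16, adjusted p = 0.383). Cox7b had wide replicate gaps in both fractions, with 468.5 and 767.1 in EGFP-positive samples, against 618.4 and 989.7 in EGFP-negative samples (-0.38 ± 0.32, adjusted p = 0.621). The difference was -0.03 without EGFP-positive replicate 1 and -0.04 without EGFP-negative replicate 2. It was -0.74 and -0.72 without EGFP-positive replicate 2 and EGFP-negative replicate 1. The other Cox7b feature was lower without overlap, at -0.53. That feature gave -0.23 without EGFP-positive replicate 1 and -0.32 without EGFP-negative replicate 2.

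Other common forms in the isoform families of complex IV had overlapping fractions. Cox6c, outside these families and chosen after its values were seen, overlapped in its kept feature (-0.32 ± 0.22). Its other feature was lower without overlap, at -0.21. Ndufa4, the brightest complex IV feature, read 1537.5 and 1989.2 in EGFP-positive samples, against 1452.6 and 2263.9 in EGFP-negative samples (-0.05 ± 0.25, adjusted p = 0.96). Cox4i1 differed by 0.05 ± 0.21, Cox7a2 by -0.07 ± 0.14 and Cox7a2l, a factor that joins complexes III and IV, by 0.01 ± 0.10. Cox6a1 had the highest difference of the complex at 0.21 ± 0.20 (adjusted p = 0.67), with 674.4 and 992.5 in EGFP-positive samples, against 702.0 and 711.6 in EGFP-negative samples. Without EGFP-positive replicate 2 it was -0.07.

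Forms known from muscle or testis differed little. Those known from heart and skeletal muscle had differences of -0.07 ± 0.10 for Cox6a2, 0.02 ± 0.10 for Cox7a1 and -0.12 ± 0.10 for Cox8b. Cox6a2 and Cox8b were among the 4 complex IV genes that were lower without overlap. Those known from testis had -0.07 ± 0.14 for Cox6b2, -0.01 ± 0.12 for Cox7b2 and -0.06 ± 0.15 for Cox8c. Cox7b2 alone among the 66 genes lay in the dimmest 25% of features, with 41.1 and 48.1 in EGFP-positive samples, against 45.5 and 44.2 in EGFP-negative samples. The other muscle and testis forms lay between percentiles 36.8 (Cox8b) and 50.1 (Cox6b2) of mean log2 intensity over all features. Of 10 muscle markers none was called or had an unadjusted p under 0.05, and their summed intensity was 1744.0 and 1683.2 in EGFP-positive samples, against 1869.0 and 1776.9 in EGFP-negative samples.

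Ndufa4l2 and Cox4i2, paralogs of Ndufa4 and Cox4i1 that are known to be induced in low oxygen, had the widest gaps of the 66 genes between the EGFP-positive replicates. Ndufa4l2 read 2256.7 and 446.2 in EGFP-positive replicates 1 and 2, against 2710.6 and 1914.8 in EGFP-negative replicates 1 and 2. The gap between the EGFP-positive samples was 5.06-fold, and replicate 1 lay within the EGFP-negative range. Cox4i2 read 622.0 and 272.7 in EGFP-positive replicates, against 821.2 and 604.6 in EGFP-negative replicates, a gap of 2.28-fold within the EGFP-positive fraction. Differences were -1.18 ± 0.74 for Ndufa4l2 (95% interval -3.07 to 0.70, adjusted p = 0.492) and -0.77 ± 0.40 for Cox4i2 (-1.80 to 0.25, adjusted p = 0.392).

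These were the only 2 members whose call changed when 1 array was left out. Without EGFP-positive replicate 1, Ndufa4l2 differed by -2.35 ± 0.23 (limma adjusted p = 0.00858) and Cox4i2 by -1.37 ± 0.21 (adjusted p = 0.0256). That fit rests on 1 EGFP-positive array, assumed to vary like the EGFP-negative ones, and called 3.4% of all features lower. Without EGFP-positive replicate 2 the differences were -0.01 and -0.18. Both paralogs are known from pericytes, so the endothelial and pericyte markers are given beside them, after the cell cycle and progenitor genes. EGFP-positive replicate 1 over replicate 2 was 1.56-fold for Mcm2 to 2.33-fold for Ccna2 over the 7 cell cycle genes. Over the 7 progenitor markers it ran from 0.629-fold for Sfrp2 to 2.19-fold for Hes1, on both sides of 1. For the 2 paralogs it was 5.06-fold (Ndufa4l2) and 2.28-fold (Cox4i2). Of the 7 endothelial and pericyte markers none was called, 3 had differences below 0, and the summed intensity was 4221.4 and 2152.1 in EGFP-positive replicates 1 and 2, against 5954.8 and 3847.6 in EGFP-negative replicates. That sum was mostly Kdr, a receptor for vascular endothelial growth factor also present in retinal progenitors, with 3171.2 and 1107.0 in EGFP-positive replicates, against 4888.5 and 2883.9 in EGFP-negative replicates. The pericyte gene Pdgfrb read 338.5 and 347.1 in EGFP-positive samples, against 391.9 and 324.3 in EGFP-negative samples. Rgs5, of the same list, read 92.2 and 80.5 in EGFP-positive samples, against 76.4 and 79.2 in EGFP-negative samples. Pecam1 read 110.4 to 110.5 on all 4 arrays. The part of any of these cells in the result was not tested.

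**Figure D3:**
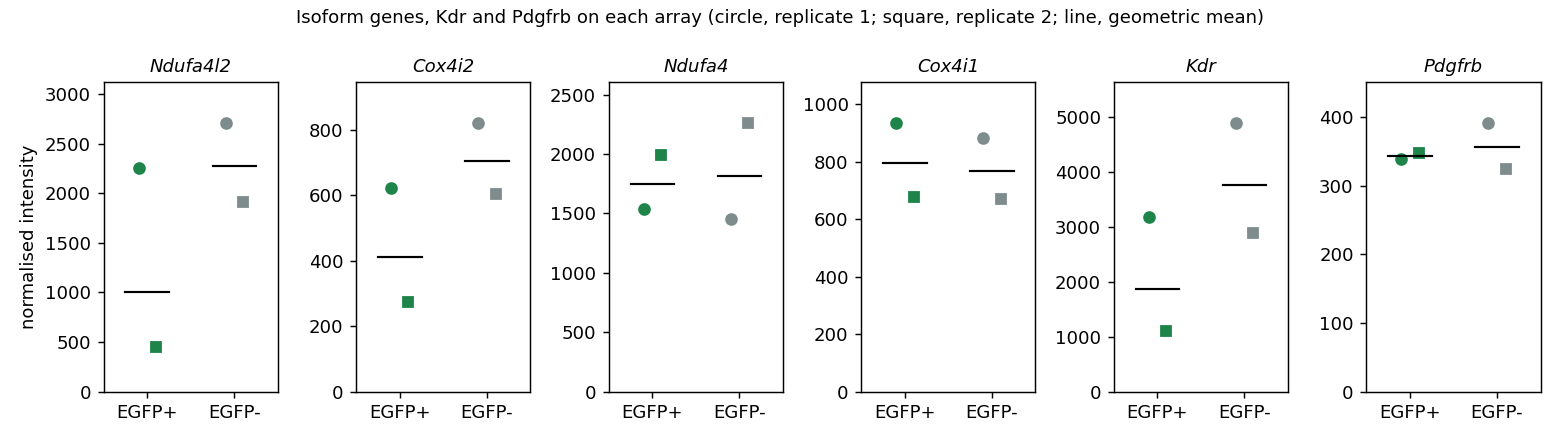
Normalised intensity on each array of Ndufa4l2, Cox4i2, their paralogs Ndufa4 and Cox4i1, and Kdr and Pdgfrb of the endothelial and pericyte list. EGFP-positive (EGFP+) and EGFP-negative (EGFP-) samples are shown apart. Circles are replicate 1, squares replicate 2 and lines geometric means, and EGFP-positive replicate 2 is the lowest sample for Ndufa4l2, Cox4i2 and Kdr.

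Medians were also taken for each pair of arrays. Over the 66 genes the median difference from EGFP-negative replicates 1 and 2 was -0.18 and -0.16 for EGFP-positive replicate 1, and -0.17 and -0.20 for EGFP-positive replicate 2. The complex IV genes had -0.12 and -0.08 for EGFP-positive replicate 1 and -0.03 and -0.02 for replicate 2. Over all features the medians were -0.044 and -0.005 for replicate 1 and -0.015 and 0.025 for replicate 2. The cell cycle genes had medians of -0.81 and -0.35 for EGFP-positive replicate 1 and of -1.90 and -1.43 for replicate 2. The progenitor markers had -0.61 and -0.67 for replicate 1 and -1.24 and -1.09 for replicate 2. No difference between these lists was tested, and the 4 pairs share arrays.

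**Figure D4:**
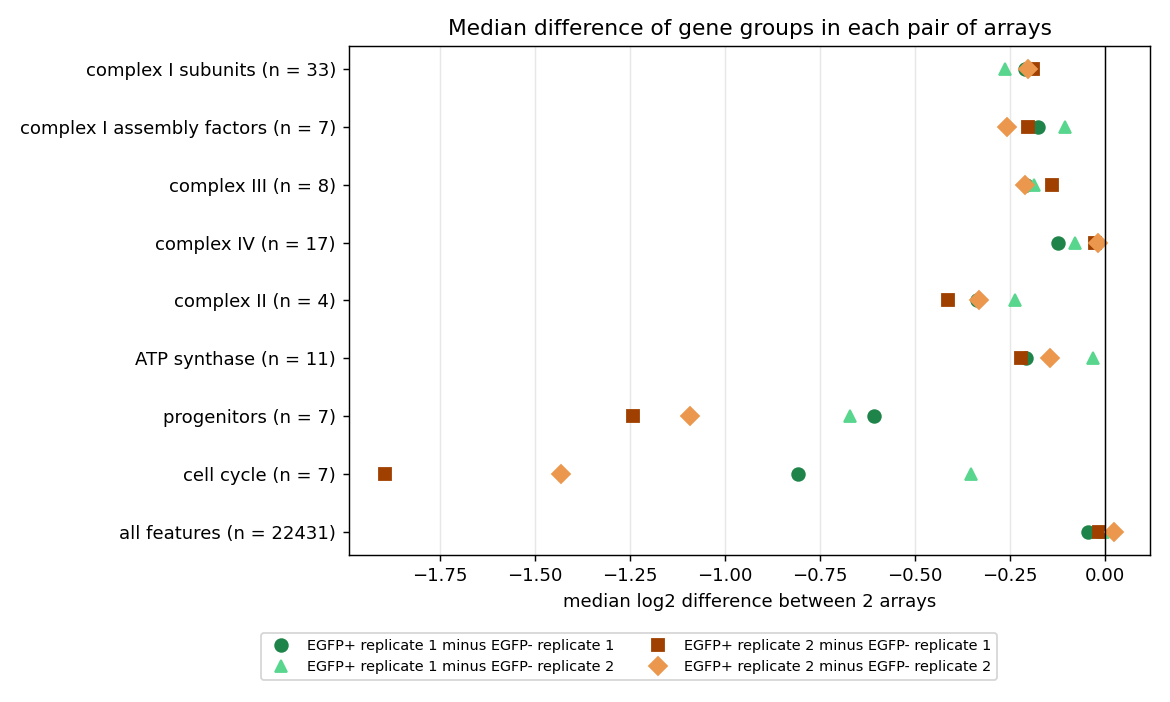
Median log2 difference of gene groups (rows, with the number of genes) for each of the 4 pairs of 1 EGFP-positive (EGFP+) and 1 EGFP-negative (EGFP-) array. Medians of complexes I, III and IV lie between -0.26 and -0.02 in each pair, and those of the cell cycle genes between -1.90 and -0.35.

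Other genes of oxidative phosphorylation, from lists chosen by role, lay on the same side. All 4 complex II genes had differences below 0, with a median of -0.26, and none was called. Sdhd, a membrane anchor of the complex, read 546.4 and 507.2 in EGFP-positive samples, against 741.2 and 708.5 in EGFP-negative samples (-0.46 ± 0.10, adjusted p = 0.108). Of 11 measured ATP synthase genes 10 were below 0, with a median of -0.18, and of 15 complex IV assembly genes 14 were, with a median of -0.15. Coa3, which acts on the first steps of complex IV assembly, read 568.5 and 591.7 in EGFP-positive samples, against 803.1 and 803.6 in EGFP-negative samples (-0.47 ± 0.10, adjusted p = 0.0953). Cyc1, which encodes a cytochrome subunit of complex III, had overlapping fractions and differed by -0.02 ± 0.10. Cycs, which encodes cytochrome c, differed by -0.06 ± 0.13. None of these 33 genes was called by limma, and 5 had an unadjusted p under 0.05, all lower. Of all features 9.83% were lower at that threshold. Of 6 complex III assembly genes 5 were below 0 (median -0.07), and of 7 further complex I assembly genes 5 were (median -0.06), with none called.

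For 8 of the 66 genes more than 1 feature was measured, and their features gave differences of the same sign in each of the 8. The farthest apart were those of Cox7b, by 0.15. Many respiratory chain genes have processed pseudogene copies in the mouse genome, and the annotation used here does not say which features could also bind RNA of such copies.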

How the data were processed

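The deposited values are normalised intensities on a linear scale, 1 column per array, and RMA and the genome build mm8 are named in the submitters' processing notes. The version of RMA, and whether features were filtered, is not given in the sources used here. The linear scale was inferred from the range, 18.9 to 36625.2, with array medians from 218.4 to 222.9. Such normalisation gives the arrays a common distribution, so differences are relative to the other features and not amounts per cell. Per the labels, 100 ng of total RNA per sample was amplified and labelled with biotin. Spearman's correlation over all features was 0.985 between EGFP-positive arrays, 0.987 between EGFP-negative arrays and 0.954 to 0.98 across fractions.

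Log2 of the deposited intensities was modelled by fraction alone over all 22431 features (limma 3.58.1, R 4.3.3; lmFit, then eBayes without a trend), with two-sided p-values and Benjamini-Hochberg adjustment. Having 4 arrays limits the precision, since the spread had 2 residual and 3.26 prior degrees of freedom, and the median SE was 0.119. No filter was applied, so all 66 members were tested. The fit was tested on simulated data. Symbols came from the platform annotation, and all 66 matched current RefSeq symbols through Entrez gene numbers. Another 3 features carry such a symbol beside another gene's and were left out.

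Members and lists were chosen with earlier results of these data known. Named are, per group, up to 2 genes with the largest differences in each direction, the complex IV isoform families with Ndufa4 and Ndufa4l2, and the brightest feature of each complex. Alternatives left out each array and changed the normalisation, filter, variance model, feature choice and replicate term.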

Additional observations from a re-analysis of the deposited data

How the results depend on the processing

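Under 11 alternative settings between 52 and 57 of the 66 members had differences below 0, and the median over the members ranged from -0.19 to -0.15. No member was called higher in any of them. Leaving out 1 array at a time gave 0 to 2 members called lower, 0 to 667 features called higher and 0 to 762 called lower. The highest counts came without EGFP-positive replicate 1, and both counts of features were 0 without either EGFP-negative array. The median ranged from -0.21 to -0.16 for assembly factors and from -0.12 to -0.019 for complex IV. Of 34 genes named by the rule, 11 turned sign when an array was left out. They ranged from -0.19 to 0.28 for Cox4i1, -0.068 to 0.49 for Cox6a1, -0.22 to 0.085 for Cox6b2, -0.037 to 0.068 for Cox7a1, -0.22 to 0.088 for Cox7a2, -0.016 to 0.026 for Cox7a2l, -0.13 to 0.10 for Cox7b2, -0.23 to 0.10 for Cox8c, -0.17 to 0.24 for Ndufa1, -0.051 to 0.42 for Ndufa11 and -0.37 to 0.27 for Ndufa4. None of these was called in any setting. Differences nearer to 0 by over 1.5 times were those of Ndufb9 (-0.26), Ndufaf2 (-0.21) and Cox8a (-0.15) without EGFP-negative replicate 2. So were those of Ndufaf7 (-0.17) and Ndufa6 (0.055) without EGFP-positive replicate 2, and of Ndufb10 (0.088) and Cox8a (-0.19) without EGFP-positive replicate 1. Without EGFP-negative replicate 1 those of Ndufa6 (0.029) and Cox6a2 (-0.016) were, and others are given above. With each array centred on its median Cox7b2 turned to 0.012, and it was removed by the filter on the dimmest 25% of features. Features called lower numbered 21 with a variance trend in eBayes and 51 with the mean of all features of a gene. The cause of these changes was not tested.

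With the replicate number as a block, 7 of the 66 members were called lower, against 0 without it. Of all features, 1377 were called higher and 1500 lower (6.69%). At an unadjusted p under 0.05, 26 members were lower, and the share of all features was not taken at that threshold. The 7 were Ndufb6 (adjusted p = 0.00952), Ndufc2, Uqcrb, Ndufa12, Ndufv2, Ndufc1 and Cox4i2 (adjusted p = 0.0478). The labels give no more than the shared number, and with 2 pairs the data cannot settle a pairing. Deviations from the fraction means correlated at 0.481 over all features and 0.569 over the members between same-numbered samples.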

Other observations

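Beyond the respiratory chain itself, genes for mitochondrial membrane channels, import and matrix folding had lower means in EGFP-positive cells as well. All 9 measured genes of that list had differences below 0, with a median of -0.32, and none was called by limma. Of them 8 lay lower without overlap (88.9%, against 25.3% of all features). An unadjusted p under 0.05 held for 5 of them (55.6%, against 9.83% of all features lower). Hspd1, the mitochondrial chaperonin gene, read 1395.7 and 1354.6 in EGFP-positive samples, against 2203.1 and 2098.6 in EGFP-negative samples (log2 difference -0.65 ± 0.10, adjusted p = 0.0672). Vdac3, an outer membrane channel gene, read 665.5 and 654.9 in EGFP-positive samples, against 953.1 and 935.3 in EGFP-negative samples (-0.52 ± 0.10, adjusted p = 0.085). Cs, the citrate synthase gene, differed by -0.02 ± 0.13.

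Regulators of mitochondrial gene expression did not lie on 1 side, with 8 of 14 below 0 and a median of -0.04. Without overlap 6 lay lower (42.9%, against 25.3% of all features) and 3 higher (21.4%, against 22.3%). Esrrg, which encodes an orphan nuclear receptor that drives oxidative metabolism genes, read 719.1 and 1273.4 in EGFP-positive samples, against 293.8 and 282.3 in EGFP-negative samples. Its fractions did not overlap, and the difference of 1.73 ± 0.27 was not called (adjusted p = 0.0677). Pprc1, a coactivator of the same family as Ppargc1a, read 306.9 and 274.9 in EGFP-positive samples, against 407.9 and 439.4 in EGFP-negative samples (-0.54 ± 0.11, adjusted p = 0.0952). Tfam, the packaging factor of mitochondrial DNA, differed by -0.43 ± 0.17 (adjusted p = 0.262). Nrf1 and Gabpa, whose motif letters were counted in the promoters, differed by -0.04 ± 0.10 and 0.01 ± 0.14.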
